A study of Mus musculus with 12 samples.

Results

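RNA bound to RPL10A-tagged ribosomes was compared with the RNA left unbound in the choroid plexus (ChP) of the lateral ventricle (LV), with morning and evening pooled. The comparison took every library of the series: 6 of translating ribosome affinity purification (TRAP) and 6 of the matching supernatant, 12 of 12 in all. The mice carried FoxJ1:cre and a Cre-dependent EGFP:L10a allele in every group, so bound and unbound RNA came from animals of the same genotype. The labels give an age of 60 days and the study's methods 8 weeks, and each library was made from LV ChP pooled from 3 mice. Groups were TRAP at 9 a.m., TRAP at 9 p.m., supernatant at 9 a.m. and supernatant at 9 p.m., with 3 libraries each, and TRAP and supernatant of the same number and time carry the same animal number.

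In TRAP, an antibody to EGFP pulls down ribosomes that contain the tagged large-subunit protein RPL10A together with the mRNA they are reading. Cre under Foxj1, the transcription factor of multiciliated cells, tags the ribosomes of ChP epithelium and other ciliated cells, while fibroblasts, vessels and macrophages of the ChP stroma stay untagged. The supernatant therefore holds 2 kinds of RNA: RNA of tagged cells that was not on tagged ribosomes, such as nuclear RNA, and all RNA of untagged cells. The ChP epithelium makes cerebrospinal fluid and secretes large amounts of a few proteins, transthyretin (Ttr) foremost. Which RNAs were relatively depleted from or enriched on tagged ribosomes, whatever the hour, was the question of the comparison.

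Values were the authors' FPKM, read fragments scaled to the length of the transcript and to the mapped reads of the library, and so relative within a library. Fold changes are given as log2 of TRAP over supernatant on log2(FPKM + 1), from a limma fit with time of day as a covariate, so negative values mean less in TRAP. The added 1 makes the fold changes of weakly expressed genes too small. Read depth is unknown, since the files give no counts. Genes with a p below 0.05 after Benjamini-Hochberg adjustment were called where the log2 fold change also exceeded 0.3 in size. Of 24327 genes, 11156 had a mean FPKM above 1 over the 12 libraries and were tested.

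Genes with a known place in the tissue were read first. Ttr, the thyroid hormone carrier that marks ChP epithelium, ranged from 20922 to 51514 FPKM with a median of 32118 in TRAP, and from 21463 to 37447 with a median of 25867 in the supernatant. It was thus very abundant in both fractions, with overlapping ranges (log2 fold change 0.35 ± 0.21, SE, adjusted p = 0.689, limma), and under quantile normalization its direction flipped. For Foxj1 the medians were 67.5 FPKM on tagged ribosomes and 48.8 unbound. Rpl10a cannot stand for the tagged transgene, since whether the endogenous gene or the transgene gave its reads was not tested. It had 0 to 11.5 FPKM (median 4.39) in TRAP and 0 to 5.31 (median 0) in the supernatant. The ranges overlapped (log2 fold change 1.67 ± 0.78, SE, adjusted p = 0.646, limma). Genes with an FPKM above 1 numbered 6639 to 10186 in TRAP and 7825 to 10540 in the supernatant (exact two-sided permutation test within times, p = 0.56, adjusted p = 0.56). TRAP 9 a.m. replicate 3 stood apart with 6639 such genes and with 107 of 2940 abundant genes (median FPKM above 20) listed at 0. Without this library Igf2 and Trpm3 were not called (adjusted p = 0.0518 each, limma), and 1810043H04Rik was called higher in TRAP.

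Few genes separated the fractions beyond the spread between libraries. Limma called 2 genes higher in TRAP (0.0179% of those tested) and 10 lower (0.0896%), while 861 genes had an unadjusted p under 0.05, 307 of them higher and 554 lower. The genes lower in TRAP were Malat1, Rpph1, Rprl3, Cdr1, Alpl, Zfp644, Tcf20, Fam81a, Trpm3 and Igf2. Those higher in TRAP were Ezr and Sqstm1. In all 12 the libraries of the 2 fractions did not overlap. The same direction at 9 a.m. and at 9 p.m. follows from this and is no separate evidence. With the libraries of the same animal number as a replicate block, 0 genes were called higher and 6 lower (Malat1, Rpph1, Rprl3, Cdr1, Tcf20 and Fam81a), with 731 genes at an unadjusted p under 0.05. Over all genes tested, the log2 fold change had a median of -0.13, so that a typical gene read slightly lower in TRAP. Under quantile normalization this median was -0.03 and with coding genes only, rescaled to equal sums, -0.19.

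**Figure D1:**
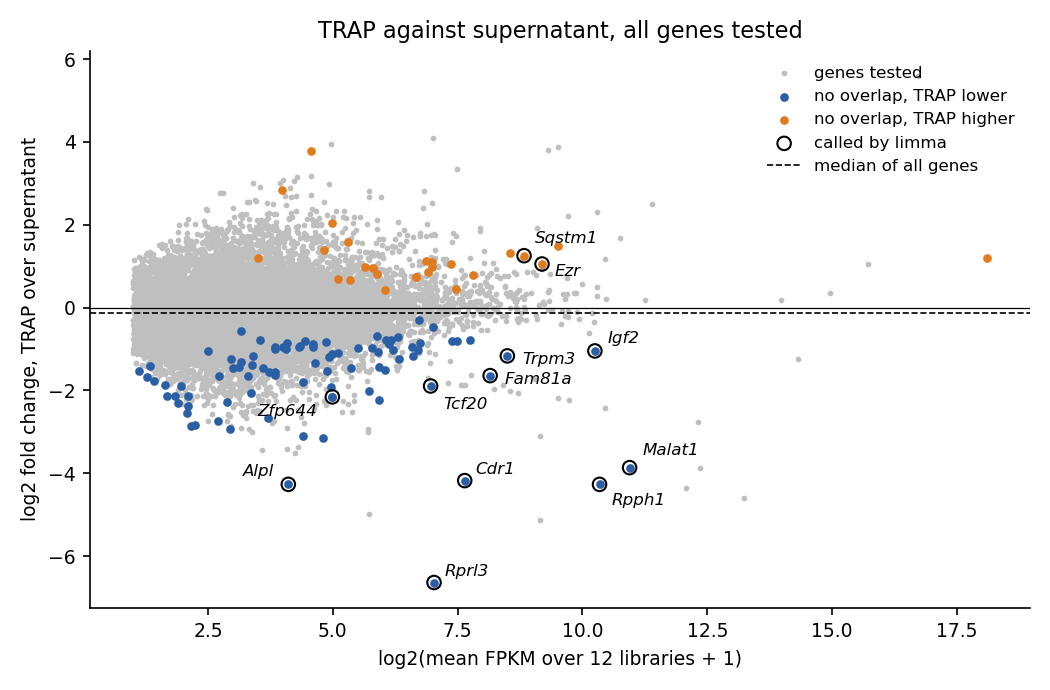
Log2 fold change of TRAP over supernatant against log2(mean FPKM over 12 libraries + 1) for the 11156 genes tested. Circles mark the 12 genes called by limma, colours mark genes whose 6 TRAP libraries all lie below (blue, 89 genes) or above (orange, 26 genes) the 6 supernatant libraries, and the dashed line is the median of all genes, -0.13.

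Separation without any overlap was a wider description of the same contrast. In 26 genes (0.233% of those tested) all 6 TRAP libraries lay above all 6 supernatant libraries, and in 89 genes (0.798%) they lay below. All 12 called genes were among these 115. Genes named from this set that are neither called nor in a gene list were chosen after their values were seen.

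Malat1, a long noncoding RNA (lncRNA) that stays in nuclear speckles, showed the clearest depletion. It lies on the minus strand at chr19:5795690-5802672 (mm10). In TRAP its FPKM ran from 174 to 311 with a median of 256, and in the supernatant from 2510 to 4314 with a median of 3847. The lowest supernatant library was thus several times above the highest TRAP library, and the means differed 14.5-fold (log2 fold change -3.86 ± 0.18, SE, adjusted p = 6.48e-09, limma; 7.50e-06 with the replicate block). Neat1, the lncRNA on which paraspeckles are built, also did not overlap, at 1.02 to 39.9 FPKM (median 28.3) in TRAP and 45.8 to 148 (median 96.0) in the supernatant, but did not pass the test (log2 fold change -2.23 ± 0.55, SE, adjusted p = 0.225, limma).

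The other listed nuclear lncRNAs were further from the threshold. Of 15 listed, 7 were tested, with 1 called lower, where the background was 0.0896%, and 6 of 7 fold changes below 0 (median -0.80, against -0.13 over all genes). With a library left out this median lay between -1.26 (TRAP 9 p.m. replicate 3) and -0.48 (TRAP 9 p.m. replicate 2). Firre and Meg3 had log2 fold changes of -1.38 and -0.80 with wide overlap. Tug1 was at -0.06 and Peg13 at 0.60. As a share of the FPKM of coding and lncRNA genes together, lncRNAs took up 0.576% ± 0.114 (SD, n = 6) of the bound RNA and 1.72% ± 0.182 (SD, n = 6) of the unbound RNA, with no overlap (exact two-sided permutation test within times, p = 0.005, the smallest possible, adjusted p = 0.0175). With Malat1 left out the shares were 0.496% ± 0.104 and 0.544% ± 0.130 and overlapped (p = 0.46, exact permutation test). Without Malat1, a difference in the lncRNA share was thus not detectable, an alternative added after seeing the data.

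**Figure D2:**
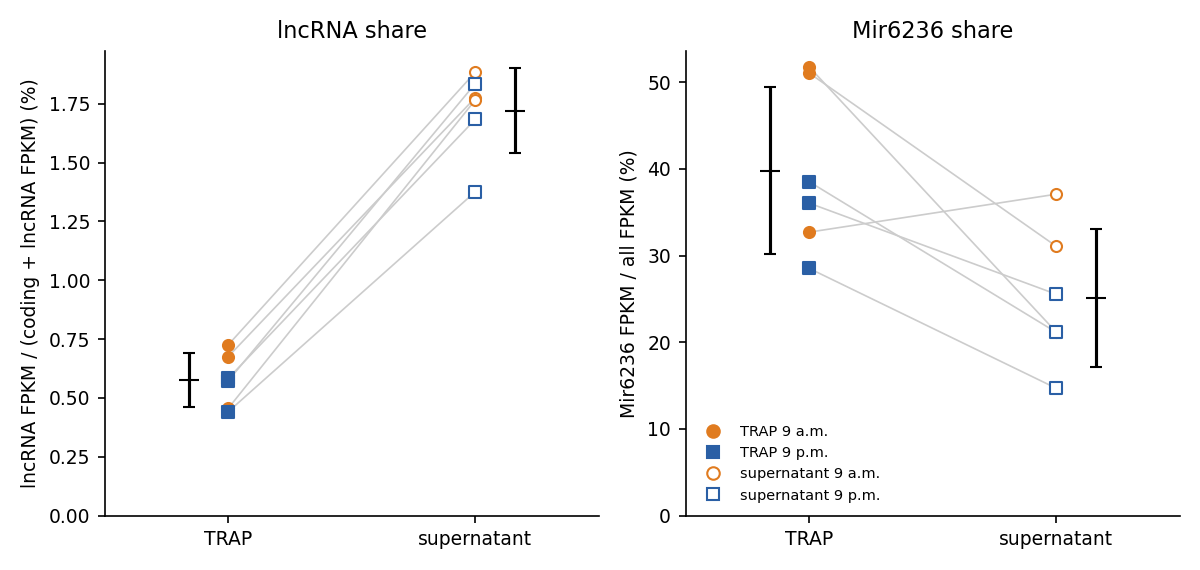
Left, the share of lncRNA genes in the FPKM of coding and lncRNA genes (%) per library. Right, the share of Mir6236 in all FPKM (%). Points are libraries, grey lines join TRAP and supernatant of the same animal number and time, and bars give mean and SD (n = 6). Every lncRNA share in TRAP, at most 0.726%, lies below every supernatant share, at least 1.38%, while the Mir6236 shares overlap.

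The RNA of the enzyme RNase P was depleted from TRAP as well. Rpph1, its catalytic RNA, which trims the 5′ ends of tRNA precursors in the nucleus, lies on the minus strand at chr14:50807449-50807767. It had 43.5 to 440 FPKM (median 78.7) in TRAP and 1409 to 5235 (median 1855) in the supernatant. The groups were far apart, and the 2 highest TRAP libraries were both from 9 p.m. (log2 fold change -4.27 ± 0.43, SE, adjusted p = 2.63e-04, limma). Of the 50-base windows of the Rpph1 transcript, 68.1% also lie in transcripts of its neighbour Ccnb1ip1, so reads of the 2 genes cannot be told apart there.

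Rprl3, an RNase P RNA-like gene at chr8:3803069-3803358 on the minus strand, was listed at 0 in 4 of 6 TRAP libraries, at 2.90 and 18.4 FPKM in 9 p.m. replicates 1 and 2, and at 39.4 to 514 (median 253) in the supernatant. This was the lowest fold change of all genes called (-6.64 ± 0.70, SE, adjusted p = 3.13e-04, limma). Only 2.90% of its 50-base windows occur in another gene, Rprl2. Of 21 small structured RNAs listed, 11 were in the table and 7 were tested, and none of the 7 had a fold change above 0 (median -2.02, and -2.73 to -1.10 with a library left out, the latter without supernatant 9 p.m. replicate 3). Rmrp, the RNA of the related enzyme RNase MRP, was almost level, at 37.1 to 293 FPKM (median 164) in TRAP and 49.96 to 323 (median 177) in the supernatant, with a log2 fold change of -0.08 ± 0.51 (SE). Rn45s, the precursor of ribosomal RNA, was listed at 0 in 4 TRAP and 2 supernatant libraries and reached 19195 FPKM in TRAP and 11817 in the supernatant, with a log2 fold change of -3.87 ± 3.24 (SE). Ribosomal RNA was depleted in library preparation.

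Cdr1 is annotated opposite to the circular RNA Cdr1as, a sponge for the microRNA miR-7 in brain. The gene lies at chrX:61184005-61185558 on the minus strand as a single exon. It had 4.43 to 91.6 FPKM (median 14.4) in TRAP and 158 to 540 (median 370) in the supernatant, so the highest TRAP library, 9 a.m. replicate 3, was still below the lowest supernatant library (log2 fold change -4.18 ± 0.54, SE, adjusted p = 0.00205, limma; 0.00458 with the replicate block). All 50-base windows of Cdr1 (100%) also lie, on the other strand, in transcripts of C230004F18Rik. Whether the authors' quantification used strand is not stated in these sources, so that reads of Cdr1 and of the RNA opposite to it cannot be told apart. C230004F18Rik itself was at 20.3 FPKM in TRAP 9 a.m. replicate 1 and at 1.27 or less in each other library.

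To show what the opposite strand holds, the mature miR-7 sequences (RefSeq, GRCm38.p6) are printed with the seed, bases 2 to 8, in capitals, followed by the first 30 bases of the strand opposite to Cdr1 (chrX:61184005-61184034, plus strand, GRCm38) with the letters that pair with the seed in capitals.
miR-7a-5p (Mir7-1, chr13:58392841-58392863, minus strand): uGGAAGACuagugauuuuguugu
miR-7b-5p (Mir7b, chr17:56243017-56243040, plus strand): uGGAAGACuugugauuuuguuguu
strand opposite to Cdr1: tcaacGTCTTCCccaaaatccatGTCTTCC
Both forms share their seed, and its match, GTCTTCC, occurs 2 times in these 30 bases. The 1554-base Cdr1 transcript holds 0 matches on its own strand and 79 on the opposite strand, and the longest transcript of C230004F18Rik, 19658 bases, holds 125 on its own strand. Of 55341 annotated genes, 17.7% hold the 7 letters at least once on their own strand and 5 hold them 10 times or more. Mir7-1 and Mir7b were listed at 0 in all libraries.

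Of the 7 coding genes called lower, Cdr1 included, Alpl had the largest fold. Alpl, the tissue-nonspecific alkaline phosphatase of vessels and mesenchyme, lies on the minus strand at chr4:137741733-137796384. It was between 0 and 1.93 FPKM (median 0.446) in TRAP and between 7.81 and 40.2 (median 35.7) in the supernatant, where 9 a.m. replicate 2 was the low library (log2 fold change -4.27 ± 0.60, SE, adjusted p = 0.00488, limma; 0.0615 with the replicate block).
Igf2, the growth factor that the ChP secretes into the cerebrospinal fluid (chr7:142650766-142666816, minus strand), had 606 to 1006 FPKM (median 751) in TRAP and 1340 to 2205 (median 1518) in the supernatant. Its groups did not overlap, and it was 2.06-fold higher in the supernatant (log2 fold change -1.04 ± 0.18, SE, adjusted p = 0.0258, limma). The call of Igf2 was lost with the replicate block (0.227) and in 10 of 12 fits that left out a library (adjusted p from 0.0135 to 0.105 over the 12), and without the intensity trend (0.528). Of its 50-base windows, 75.9% lie in the overlapping gene Gm49394.

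Trpm3, a cation channel gene at chr19:22139046-22995410 on the plus strand, is expressed strongly in ChP epithelium. Its FPKM was 179 to 260 (median 219) in TRAP and 390 to 733 (median 464) in the supernatant. The 2.28-fold higher level in the supernatant passed the test (log2 fold change -1.16 ± 0.20, SE, adjusted p = 0.0244, limma), but not with the replicate block (0.115), without the intensity trend (0.452) or in 7 of the 12 fits that left out a library. Trpm3 hosts Mir204 in an intron, and Mir204 was listed at 0 throughout.
Tcf20, a nuclear transcriptional coregulator (chr15:82808436-82987872, minus strand), ran from 37.2 to 94.5 FPKM (median 46.4) in TRAP and from 152 to 251 (median 189) in the supernatant (log2 fold change -1.89 ± 0.24, SE, adjusted p = 0.00164, limma; 0.0148 with the block). Fam81a (chr9:70088511-70142560, minus strand) had 117 to 199 FPKM (median 122.9) in TRAP and 283 to 501 (median 452) in the supernatant (log2 fold change -1.64 ± 0.20, SE, adjusted p = 0.00164, limma; 0.0212 with the block). Zfp644, a zinc finger gene (chr5:106616739-106697287, minus strand), had 6.30 to 22.4 FPKM (median 10.1) in TRAP and 33.6 to 65.3 (median 50.1) in the supernatant (log2 fold change -2.15 ± 0.36, SE, adjusted p = 0.0244, limma; 0.153 with the block). For each of the 3 genes every TRAP library was below every supernatant library, and Zfp644 lost its call in 7 of the 12 fits that left out a library. Without the intensity trend the adjusted p was 0.0792 for Tcf20, 0.160 for Fam81a and 0.0774 for Zfp644, so that all 3 calls were lost there (limma).

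**Figure D3:**
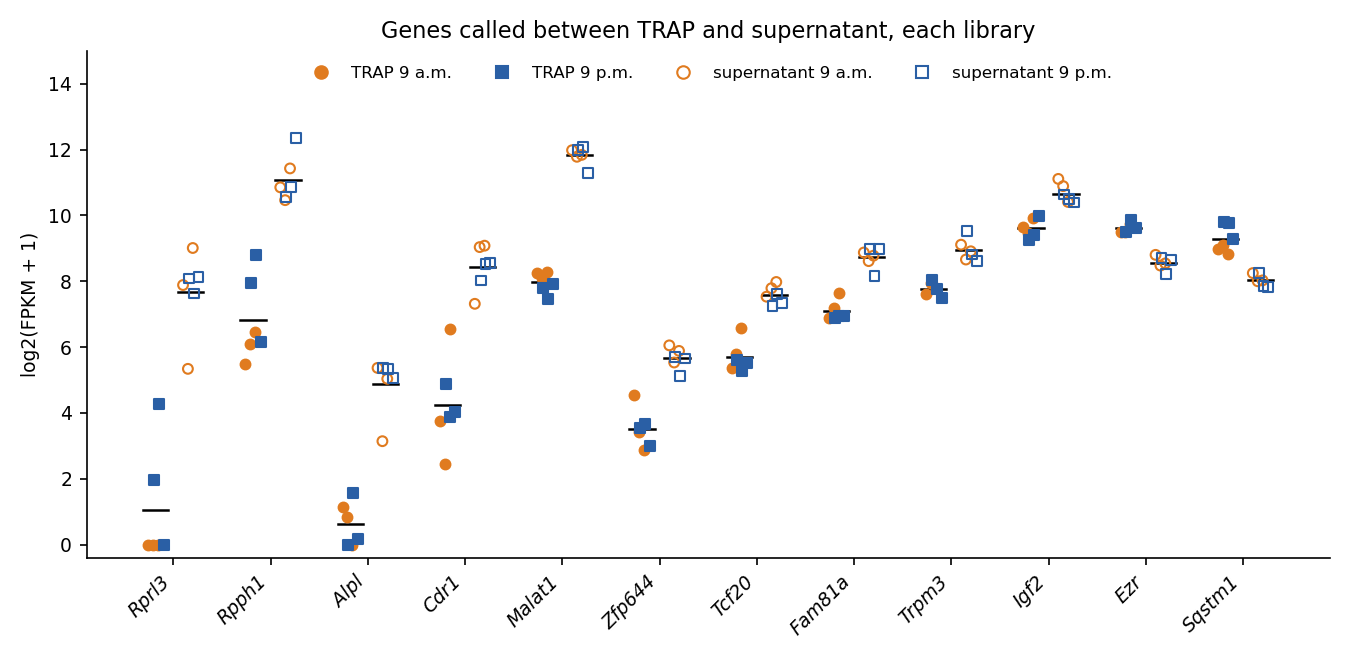
Log2(FPKM + 1) of the 12 called genes in each library, ordered by fold change. Filled symbols are TRAP, open symbols supernatant, circles 9 a.m. and squares 9 p.m., and black lines are means of 6 libraries. The groups of every gene are separate, from Rprl3 at a log2 fold change of -6.64 to Sqstm1 at 1.25.

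The genes called higher in TRAP were both abundant. Ezr, ezrin, which ties microvilli to the actin cortex and is concentrated at the apical surface of epithelia, lies at chr17:6738041-6782784 on the minus strand. It had 717 to 923 FPKM (median 756) in TRAP and 295 to 445 (median 384) in the supernatant, 2.07-fold higher in TRAP (log2 fold change 1.05 ± 0.16, SE, adjusted p = 0.0111, limma). Sqstm1, the autophagy receptor p62, lies at chr11:50199366-50210827 on the minus strand. It had 449 to 883 FPKM (median 584) in TRAP and 227 to 303 (median 257) in the supernatant, 2.46-fold higher (log2 fold change 1.25 ± 0.19, SE, adjusted p = 0.0111, limma). Both remained called in each of the 12 fits that left out a library. With the replicate block the adjusted p was 0.155 for Ezr and 0.117 for Sqstm1, without the intensity trend 0.477 and 0.392, and for Ezr it was 0.159 under quantile normalization. Part of Sqstm1 (20.4% of its windows) is shared with the overlapping gene Mrnip.

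The next genes by p in this direction did not pass the test, and their values are given as such. Commd9, a subunit of the endosomal Commander complex, had 12.2 to 91.0 FPKM (median 36.5) in TRAP and 0 to 7.34 (median 2.15) in the supernatant (log2 fold change 3.79 ± 0.72, SE, adjusted p = 0.0727, limma). Atp6v1a, the catalytic subunit of the proton pump V-ATPase, had 146 to 197 FPKM (median 163) in TRAP and 60.7 to 103 (median 90.3) in the supernatant. Ddb1, the adaptor of a ubiquitin ligase, and Prpf8, the central protein of the spliceosome, had fold changes of 1.06 and 1.09 with groups that did not overlap. Uqcrb, a subunit of respiratory complex III, had a fold change of 1.81 with overlap, at 118 to 399 FPKM (median 242) in TRAP and 18.5 to 200 (median 76.2) in the supernatant. Lars2, the mitochondrial leucyl-tRNA synthetase, was at 351 to 924 FPKM (median 505) in TRAP and 120 to 288 (median 220) in the supernatant (log2 fold change 1.33 ± 0.27, SE, adjusted p = 0.0890, limma).

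Mir6240 and Mir6236 completed the 10 genes of lowest p. Mir6236 ran from 269195 to 541166 FPKM (median 354376) in TRAP and from 84777 to 254923 (median 180471) in the supernatant. Mir6240 ran from 467 to 1673 FPKM (median 1119) in TRAP and from 246 to 444 (median 353) in the supernatant. Neither gene overlapped between fractions, and neither passed the test (log2 fold changes 1.19 and 1.49, adjusted p = 0.132 and 0.0890, limma). Their mature sequences (RefSeq, GRCm38.p6) are printed since these were the 2 microRNA genes without overlap between fractions.
miR-6236 (chr9:110281353-110281371, plus strand): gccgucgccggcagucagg
miR-6240 (chr5:114851973-114851998, plus strand): ccaaagcaucgcgaaggcccacggcg
FPKM divides by length, so few reads give a large FPKM in genes this short, and which RNA gave the reads was not tested. As a share of all FPKM, Mir6236 took up 39.8% ± 9.62 (SD, n = 6) of bound and 25.1% ± 7.98 (SD, n = 6) of unbound RNA (exact two-sided permutation test within times, p = 0.015, adjusted p = 0.035, higher in 5 of 6 pairs; p = 0.0625 for sign flips of the 6 pairs, exact, where 0.03125 is the smallest possible). All microRNA genes together held 62.8% ± 10.9 and 49.6% ± 15.9 (exact permutation test, p = 0.13). Of 1161 microRNA genes listed, 1132 were at 0 in all TRAP libraries and 1117 in all supernatant libraries. Of the 45 listed microRNA genes tested, 17 had fold changes above 0 and 28 below, with a median of -0.97. It lay between -1.30 and -0.36 with a library left out, the latter without supernatant 9 p.m. replicate 3.

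Markers of cells outside the epithelium mostly had fold changes below 0, with 0 called. In these bulk samples, RNA of untagged cells and unbound RNA of tagged cells cannot be told apart. Of 16 markers of fibroblasts and stroma, 13 were tested, 0 were called and 12 had fold changes below 0 (median -1.16). Col1a1 and Col3a1, the chains of fibrillar collagens, and Pdgfra, a receptor of mesenchymal cells, had all 6 TRAP libraries below all 6 supernatant libraries, 3 of 13 where the background was 0.798%. Col1a1 (mean 0.0892 FPKM in TRAP, 5.34 in the supernatant) and Col3a1 (0.0490 and 3.26) passed the filter only through the supernatant. The count of 3 therefore cannot be read as support for depletion. Pdgfra ran from 1.25 to 5.91 FPKM (median 2.57) in TRAP and from 10.4 to 20.8 (median 14.4) in the supernatant (log2 fold change -2.05 ± 0.51, SE, adjusted p = 0.225, limma).
Mgp, a matrix protein that inhibits calcification, was listed at 0 in 5 TRAP libraries and at 16.8 FPKM in 9 a.m. replicate 2. In the supernatant it was at 0 in 9 a.m. replicate 2 and between 72.7 and 243 FPKM in the other 5 (log2 fold change -4.97 ± 1.17, SE, adjusted p = 0.183, limma). The pair of 9 a.m. replicate 2 thus ran against the other 5, and without that supernatant library the adjusted p was 0.00181. Pcolce, an enhancer of collagen processing and the most abundant member of the list, was the exception, with a median of 128 FPKM in TRAP and 112 in the supernatant.

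The summed level of macrophage and immune markers did not overlap between fractions and was lower in TRAP. Of 18, 8 were tested, all with fold changes below 0 (median -1.12) and 0 called. Their summed FPKM was 0.843 to 16.97 in TRAP and 18.5 to 139 in the supernatant. Of the 18, 9 were listed at 0 in all 6 TRAP libraries, among them the complement genes C1qa, C1qb and C1qc. In all supernatant libraries 3 of 18 were at 0. These 3 are part of the 9 and were at 0 in every library, as were 9753 of all 24327 genes. The count of 9 has no share over all genes beside it and cannot be read as support for depletion. The sums of the fibroblast, endothelial, mural, glial and neuronal lists all overlapped between fractions. For fibroblasts and stroma they were 88.7 to 244 FPKM in TRAP and 235 to 495 in the supernatant. For endothelial markers they were 0.489 to 28.9 and 13.2 to 52.7. Cd74, the invariant chain of antigen presentation, had 0 to 9.62 FPKM (median 0.0499) in TRAP and 4.37 to 50.05 (median 10.9) in the supernatant (log2 fold change -2.99 ± 0.72, SE, adjusted p = 0.209, limma).
Endothelial markers (7 of 16 tested, median -0.99) and mural cell markers (6 of 12 tested, median -1.17) were similar in size, with 1 exception each above 0. Eng, a receptor of endothelial cells, had at most 0.536 FPKM in TRAP and 0.794 to 15.8 in the supernatant. Markers of astrocytes and oligodendrocytes (10 of 16 tested, median -1.09) and of neurons (6 of 16 tested, median -0.48) were also below the median of all genes. Leaving out a library moved these between -1.69 and -0.84 for glia and between -0.60 and -0.22 for neurons. Low levels limit all of these lists, since a member could pass the filter through the fraction in which it was higher alone.

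Hepatocyte markers, genes of another organ, had a median above 0 that rested on 1 library. Of 22 listed, 12 were tested and 10 had fold changes above 0 (median 1.18), with 0 called. Their summed FPKM was 1855 in TRAP 9 a.m. replicate 3, 16.4 to 260 in the other TRAP libraries and 15.5 to 217 in the supernatant. Without that library the median was 0.13. Apoc1, an apolipoprotein, reached 902 FPKM in it and 12.7 to 150 in the other TRAP libraries. Erythroid genes were tested for 3 of 10 in the table and had a median of -1.07.

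Fold changes of ChP epithelium markers ran from -0.38 to 0.82. Of 22 markers, all were tested, 0 were called and 0 were without overlap, with 15 fold changes above 0 (median 0.15; -0.06 under quantile normalization, where the direction flipped). Over all genes tested, 0.0179% were called higher and 0.0896% lower, and 0.233% and 0.798% were without overlap. Counts of 0 among 22 genes thus do not set these markers apart from other genes. Enpp2, autotaxin, ran from 14886 to 18732 FPKM (median 17136) in TRAP and from 12755 to 16824 (median 15461) in the supernatant, higher in 6 of 6 pairs by a log2 fold change of only 0.18 ± 0.14 (SE). Calml4 and Kcne2, the latter a potassium channel subunit of the apical membrane, had the highest fold changes of the list, 0.82 and 0.77, and Lmx1a and Htr2c, a roof plate factor and the serotonin receptor of ChP, the lowest, -0.38 and -0.32. The 22 tested genes of ion and water transport had a median of -0.03, with the cotransporter Slc12a2 at -0.15 and the water channel Aqp1 at 0.22. Among 23 secreted proteins, 1 was called lower, Igf2, where the background was 0.0896%, with a median over the list of 0.02.
Genes of motile cilia, the program that Foxj1 drives, had a median of -0.47 (26 of 30 tested, 19 below 0, 0 called; -0.30 without supernatant 9 p.m. replicate 2). Cfap43, a ciliary protein, had 1.86 to 13.6 FPKM in TRAP and 14.1 to 26.1 in the supernatant, while Rsph1, of the radial spoke, was at a median of 229 and 231 FPKM. The log2 fold change of Foxj1 itself was 0.46 ± 0.30 (SE).

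Ferritin mRNAs are translated under control of iron regulatory proteins, which bind a hairpin in the 5′ untranslated region when iron is scarce and block initiation. The 30 bases around this hairpin in GENCODE M21 transcripts are shown for both chains, with the loop letters CAGTG in capitals.
Fth1 (bases 87 to 116 of the transcript): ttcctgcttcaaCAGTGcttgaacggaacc
Ftl1 (bases 78 to 107 of the transcript): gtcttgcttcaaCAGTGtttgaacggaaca
The 5 letters alone are common, since 27.7% of 48558 genes hold them in the first 200 bases of their longest transcript. Fth1, the heavy chain, had 69.4 to 398 FPKM (median 273) in TRAP and 374 to 1152 (median 805) in the supernatant. The ranges overlapped only because TRAP 9 p.m. replicate 2 (398) lay above supernatant 9 p.m. replicate 2 (374), and the fold change did not pass the test (-1.73 ± 0.39, SE, adjusted p = 0.150, limma). Ftl1, the light chain, had 46.9 to 111 FPKM (median 56.5) in TRAP and 75.3 to 256 (median 123.1) in the supernatant (log2 fold change -1.06 ± 0.32, SE, adjusted p = 0.410, limma). Over the 15 tested genes of iron handling the median was -0.31, and over 19 mRNAs known for translational control -0.38, with 0 called in either list. With a library left out the medians reached -0.12 (without TRAP 9 a.m. replicate 1) and -0.16 (without TRAP 9 a.m. replicate 3), next to the -0.13 of all genes. The summed FPKM of the iron list did not overlap, at 378 to 761 in TRAP and 851 to 1714 in the supernatant. Fth1 was its most abundant member. For the translational control list, which also holds Fth1, the sums overlapped (922 to 1635 and 1344 to 2340).

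Genes of energy metabolism mostly had fold changes above 0, with 0 called. Fold changes also varied with transcript length. Over tested coding genes the median was 0.14 for the shortest transcripts (216 to 2038 nt) and -0.29 for the longest (5472 nt and more). The lists of coding genes given here and below were not compared with genes of matching length. What part length had in their medians was not tested. Of 85 tested subunits of oxidative phosphorylation encoded in the nucleus, 59 had fold changes above 0 (median 0.39; 0.22 without TRAP 9 p.m. replicate 2), and Uqcrfs1, the Rieske protein of complex III, was without overlap at 109 to 233 FPKM in TRAP and 42.5 to 95.1 in the supernatant. Of 32 genes of glycolysis and the citric acid cycle, 20 were above 0 (median 0.22; 0.10 without supernatant 9 p.m. replicate 2). Hk1, hexokinase, had 98.0 to 180 FPKM (median 120) in TRAP and 59.8 to 97.6 (median 70.2) in the supernatant. Ogdh, of the 2-oxoglutarate dehydrogenase complex, had 120 to 219 FPKM (median 148) in TRAP and 55.2 to 98.8 (median 94.1) in the supernatant. Both were without overlap, 2 of 32 where the background was 0.233% over all genes. Among coding genes of the highest class by mean FPKM (28.9 and more), where both lie, this share was 0.931%. Neither gene passed the test (adjusted p = 0.411 for Hk1 and 0.305 for Ogdh, limma).
Mitochondrial ribosomal proteins (76 tested, median 0.27) and cytosolic ribosomal proteins (62 tested, median 0.19) were spread on both sides of 0, and reads of cytosolic ones are uncertain because of their pseudogenes. Without TRAP 9 p.m. replicate 2 these medians were 0.0068 and -0.07. Replication-dependent histones, most of whose mRNAs end without a poly(A) tail, had a median of 0.68 (21 of 66 tested, 15 above 0), and small nucleolar RNAs a median of 0.89 over 24 of 119 tested. Both were lowest without TRAP 9 p.m. replicate 2, and leaving out a library moved them between 0.35 and 0.94 for histones and between 0.04 and 1.53 for small nucleolar RNAs. Of the 119 small nucleolar RNAs, 102 were at 0 in all TRAP libraries and 105 in all supernatant libraries. A member could pass the filter through 1 library alone. Snord91a, the most abundant, had 32311 FPKM in TRAP 9 a.m. replicate 2 and 0 in every other library. Proteasome subunits (0.04), genes of entry into and folding in the endoplasmic reticulum (-0.0012), junction genes (0.15), translation factors (-0.14), factors of mRNA decay and export (-0.04), core clock genes (-0.13), immediate early genes (0.44) and host genes of snoRNAs (-0.44) had 0 members called and 0 without overlap. Over all genes tested, 0.0896% were called lower and 0.798% lay below without overlap, so counts of 0 say little for lists this short. With a library left out, the medians ran from 0.23 to 0.99 for immediate early genes, from -1.01 to -0.06 for snoRNA hosts, from -0.27 to -0.03 for clock genes and from 0.03 to 0.22 for junction genes. That of translation factors was 0.04 without TRAP 9 a.m. replicate 3. The medians of the proteasome, endoplasmic reticulum, secreted protein, transport, decay and translation factor lists changed sign with the scaling or with a left-out library.

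**Figure D4:**
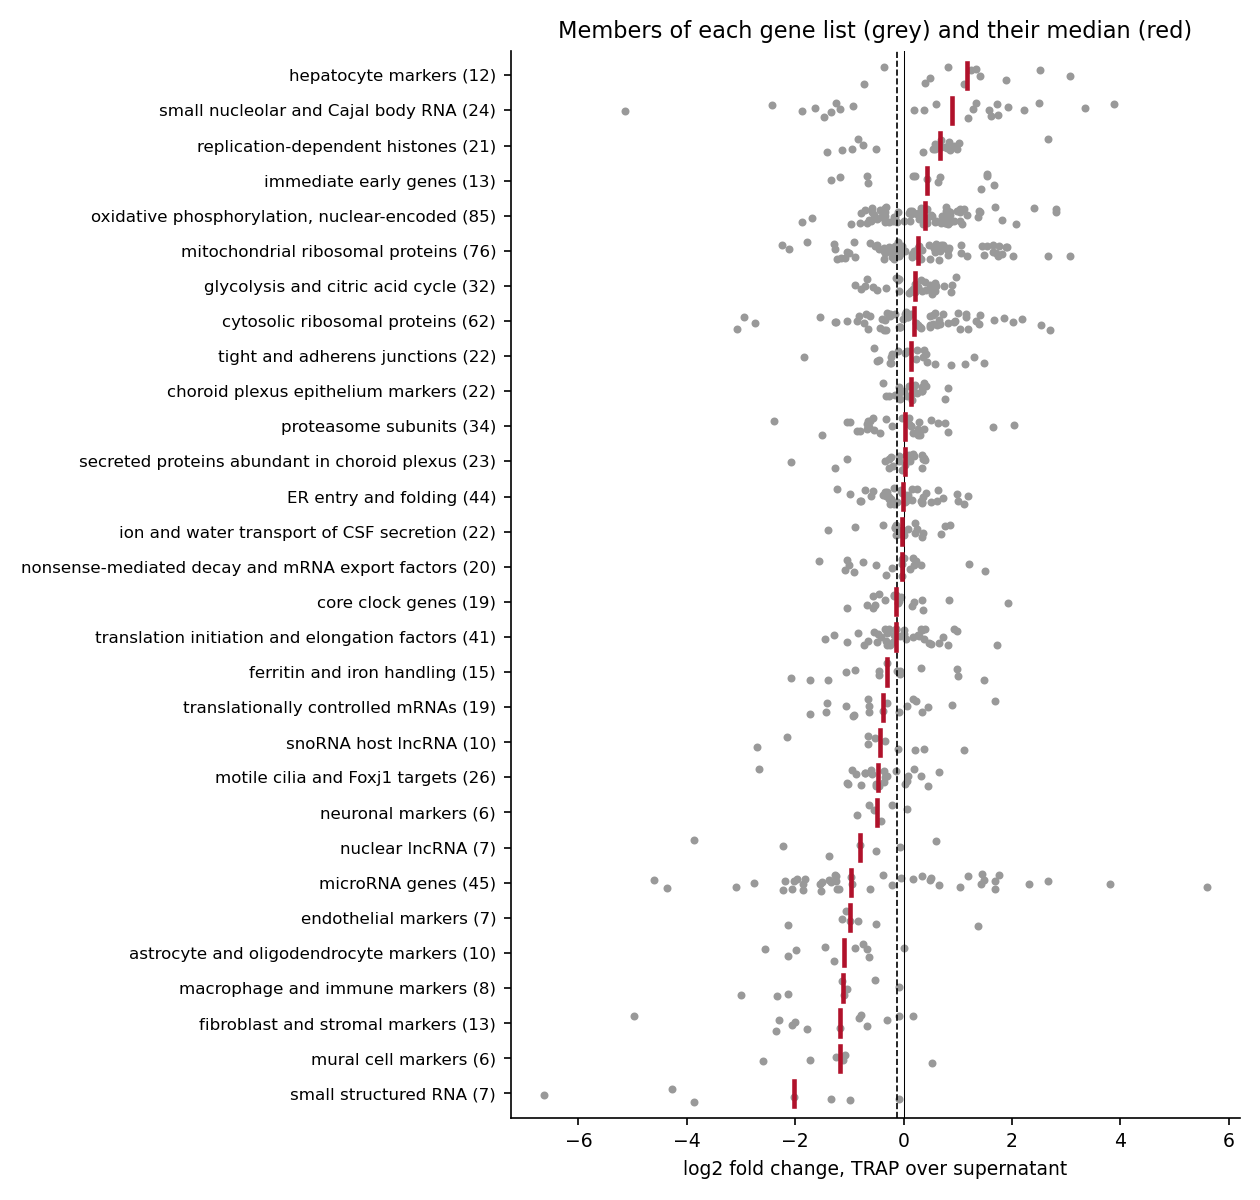
Log2 fold change of each tested member (grey points) and the median (red bar) of the gene lists with at least 6 tested members, with the number tested in parentheses. The dashed line is the median of all genes, -0.13. Stromal, vascular and immune lists lie left of it with medians of -0.99 to -1.17. ChP epithelium markers (0.15) lie slightly right of it, while motile cilia genes (-0.47) lie left of it, as do neuronal markers (-0.48).

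Fold changes were lower for longer coding genes. The 10738 tested coding genes with a GENCODE match were divided by their longest transcript into 5 length classes of equal size. The median log2 fold change was 0.14 in the shortest class (216 to 2038 nt) and -0.03, -0.11, -0.17 and -0.29 in the following classes, up to transcripts of 5472 nt and more. Of the 84 coding genes whose TRAP libraries all lay below the supernatant, 60 were in the longest class, 2.79% of that class, against 1 gene or 0.0466% of the shortest class. Of the 24 without overlap in the other direction, 6 were in the longest class. The median length was 6918 nt for the 84 genes, 4078 nt for the 24 and 3490 nt for all tested coding genes. Genomic span gave a similar picture, from a median of 0.08 in the shortest to -0.28 in the longest class. Medians by GC content of the transcript ran from -0.19 in the lowest to 0.04 in the highest class, and by mean FPKM from -0.21 to -0.01.

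**Figure D5:**
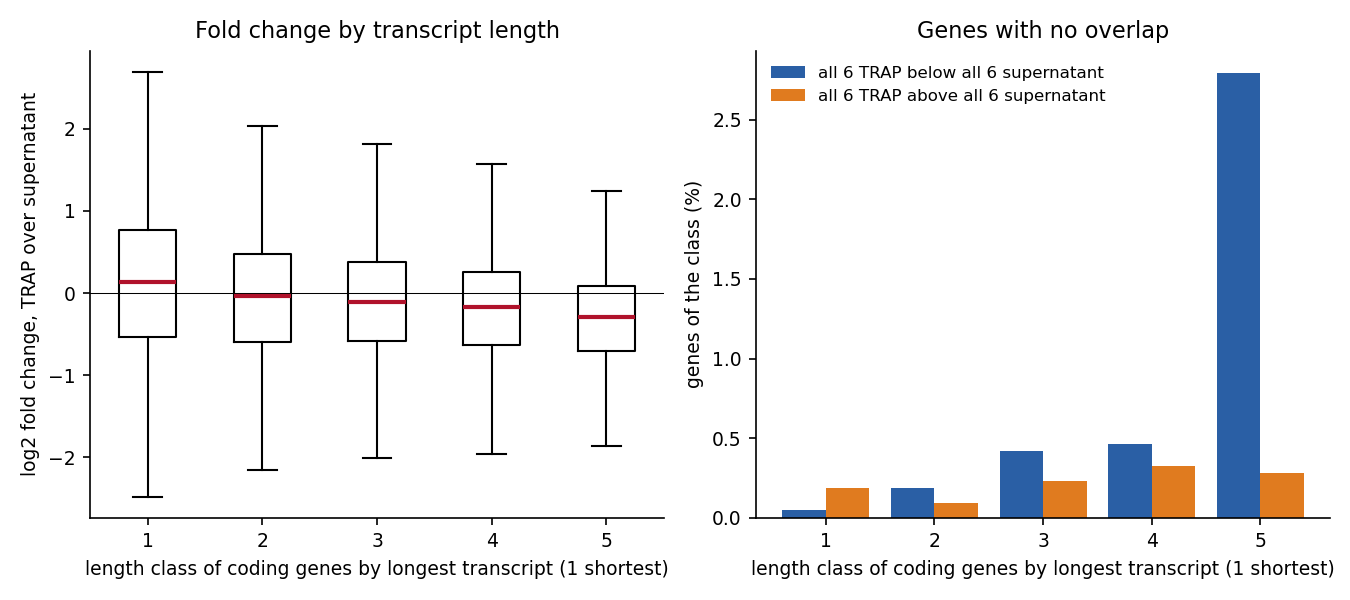
Left, log2 fold change of TRAP over supernatant for coding genes in 5 classes by longest transcript (boxes, quartiles with the median in red; whiskers, the farthest values within 1.5 box lengths). Right, the percentage of genes in each class whose 6 TRAP libraries lie all below (blue) or all above (orange) the 6 supernatant libraries. Medians go from 0.14 to -0.29, and 2.79% of the longest class lies below.

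Libraries differed in this respect within a fraction too. The median log2(FPKM + 1) of the longest minus that of the shortest class was -0.49 to 2.90 (median 0.59) over TRAP libraries and 0.25 to 2.01 (median 0.78) over supernatant libraries, so the fractions overlapped widely, with TRAP 9 a.m. replicate 3 at the top. The difference between the medians of the longest and the shortest class was -0.43 in the fold changes. In the fits that left out a library it lay between -0.53 and -0.29, the latter without TRAP 9 p.m. replicate 2. That library also had the lowest value of longest minus shortest class, -0.49. The medians of oxidative phosphorylation, ribosomal protein and histone genes were lowest without it as well. Whether length underlies these list medians was not tested. With a left-out library, 58.9% to 70.5% of the coding genes below without overlap were in the longest class.
Among the long genes without overlap were Golgb1, Golga4 and Trip11, coiled-coil proteins of the Golgi, at log2 fold changes of -1.50, -1.16 and -1.43, and Dst and Macf1, giant cytoskeletal linkers, at -0.93 and -0.88. Kmt2d, Setd2 and Crebbp, enzymes that modify histones, were at -1.10, -0.82 and -0.69. Golgb1, for example, had 19.8 to 45.2 FPKM (median 36.8) in TRAP and 76.2 to 155 (median 86.3) in the supernatant (adjusted p = 0.0763, limma). What part library preparation had in the relation to length was not tested.

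Whether the contrast of fractions differed between morning and evening was tested with an interaction term. It was called for 1 of 11156 genes (0.00896%), Mir546, while 429 had an unadjusted p under 0.05. This call was lost without the intensity trend and with a pseudocount of 0.1. Of the 12 genes called between fractions, none had an interaction adjusted p below 0.988. For example, Malat1 was at -3.66 (log2 fold change) in the morning and -4.07 in the evening, Rpph1 -4.90 and -3.64, Sqstm1 0.87 and 1.64, and Ezr 0.96 and 1.14. Fth1, which was not called between fractions, had -2.82 and -0.64, and its interaction did not pass the test either (adjusted p = 0.988, limma).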

How the data were processed

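Choroid plexus RNA was sequenced after TRAP and in the matching supernatant, 3 libraries per fraction and time. The deposited FPKM table was made by the authors, and the submitters' processing notes name STAR 2.4.0, Cufflinks, Cuffdiff and mm10. The annotation version and the use of strand are not stated there or in the methods. FPKM values keep no read depth, so no interval for counting error was possible. The authors' methods name DESeq2 on counts for the fractions, and a count table was not used here. Of 24354 genes, 27 whose names had turned into dates were left out, and 0 columns were unused. Genes with a mean FPKM above 1 were fitted as log2(FPKM + 1) in limma 3.58.1 (R 4.3.3), with fraction and time as terms, an intensity trend and Benjamini-Hochberg adjustment. Library values were compared by exact two-sided permutation within times. Python 3.11.15 and matplotlib 3.10.9 were used for the rest, and fits were tested on simulated data. Classes, lengths and positions came from GENCODE M21 by symbol (23912 genes, 98.3%).

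Groups came from the labels. The labels name an animal where the methods describe pools of 3 mice, so p-values measure the spread between these libraries. Same-numbered TRAP and supernatant libraries carry the same animal number, which pairs them by label. Deviations from the group means correlated at -0.075 to -0.014 over the 6 pairs. Between libraries of different number and the same time they correlated at -0.02 to 0.11, so the values show no sign of the pairing. The methods name no block, so it was an alternative. The rule for named genes took all called genes, the 10 of lowest p in a direction with fewer calls, per list the called members and the member of highest mean FPKM, the check genes Rpl10a, Foxj1 and Ttr, and 8 genes named in earlier results of these data (Malat1, Rpph1, Rprl3, Fth1, Cdr1, Mgp, Mir546 and Mir6236). All other genes named here, such as list members without overlap and the long genes, were chosen after their values were seen. The members and the gene lists were chosen with earlier results of these data known. Alternatives were other pseudocounts, filters, scalings, limma settings and each library left out. Mice without Cre were not analysed here.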

Additional observations from a re-analysis of the deposited data

Results flagged for a closer look

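Alpl in supernatant 9 a.m. replicate 2, at 7.81 FPKM, stood far below the other 5 supernatant libraries, which lay between 31.8 and 40.2. This gap passed Dixon's limit for 6 values. Chance alone gives about 1 such flag in 20 groups, and 38 groups were tested with 1 flag. The TRAP libraries, at most 1.93 FPKM, were below this library as well.

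Mir546 was the gene whose contrast of TRAP and supernatant differed between times (interaction, adjusted p = 0.0236, limma). The call was lost without the intensity trend and with a pseudocount of 0.1, where 0 genes were called. At 9 a.m. the 3 supernatant libraries had 572, 3026 and 2945 FPKM, while TRAP was at or close to 0 throughout. At 9 p.m. it was at 0, 260 and 49.2 in TRAP and at or close to 0 in all 3 supernatant libraries. The log2 fold change was thus -10.75 at 9 a.m. and 4.56 at 9 p.m. All 72 of the 72 windows of 50 bases in its hairpin also lie in transcripts of Ctdsp2, so reads of these genes cannot be told apart.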

How the results depend on the processing

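Malat1, Rpph1, Rprl3 and Cdr1 kept their calls in every alternative that tested them, since rescaling to coding genes leaves the first 3 out. The count of genes higher in TRAP was 1 with upper-quartile scaling, 0 without the intensity trend and 2 to 4 with a library left out, with 4 without TRAP 9 a.m. replicate 2. The count of genes lower was 23 with array weights and 7 to 11 with a library left out, and without the intensity trend it was 8, of which 5 were shared, with Fam81a, Igf2, Tcf20, Trpm3 and Zfp644 lost. Genes whose contrast differed between times numbered 0 without the intensity trend and 0 with a pseudocount of 0.1. The difference in the microRNA share was 9.25 to 19.1 percentage points with a library left out, with p = 0.04 (exact permutation) only without supernatant 9 p.m. replicate 2. The difference in the snoRNA share was -0.00805 to 1.09 points, negative without TRAP 9 a.m. replicate 2. The difference in genes above an FPKM of 1 was -808.75 to 2.25, positive without TRAP 9 a.m. replicate 3. Without Malat1 the difference in the lncRNA share was -0.0475 points, and without Mir6236 that in the microRNA share was 6.39 points, both chosen after seeing the data. Signs changed for 6 genes, none of them called. Ttr was at -0.42 under quantile normalization. With array weights Snhg9 was at -1.78, Rsph1 at 0.0125 and Bpgm at -0.12. With a library left out Snhg9 ranged from -1.03 to 1.67, Rsph1 from -0.35 to 0.13, Snap91 from -0.45 to 0.0272, and Atp5k from -0.0549 to 0.86. The cause of these changes was not tested.

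In the fit with the replicate block, which pairs libraries by animal number, 0 genes were higher and 6 lower, and 2 genes differed between times (Mir546 and Mrpl52). The Mir6236 share differed by 14.6 points with p = 0.0625 over the pairs (exact sign flips). The block changed the call of no other library value. Depth is unknown, so what a deeper library would detect cannot be given.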
